A study of Homo sapiens with 12 samples.

Results

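The globin genes encode the protein chains of hemoglobin. The 10 genes described here, chosen by symbol, were the beta-like genes *HBE1*, *HBG1*, *HBG2*, *HBD* and *HBB* and the alpha-like genes *HBZ*, *HBM*, *HBA1*, *HBA2* and *HBQ1*. They are 10 of the 56266 genes in each table. The libraries came from H1, a human embryonic stem cell (hESC) line, and from an H1 clone in which both *GATA2* alleles were disrupted (*GATA2*-/-) by a TALEN-assisted insertion of a neomycin resistance cassette. Both were co-cultured with OP9 cells, a mouse bone marrow stromal line, for blood differentiation. Hemogenic endothelium (HE; CD34+CD31+CD43-) was sorted at day 8 and hematopoietic progenitor cells (HPC; CD34+CD43+) at day 9, and 2 libraries each were available for WT HEs, *GATA2*-/- HEs, WT HPCs and *GATA2*-/- HPCs. The undifferentiated *GATA2*-/- hESCs gave 2 more libraries, so that there were 10 in 5 groups, and the 2 WT hESC samples were not analysed here. All *GATA2*-/- samples descend from a single clone, so a trait of that clone and an effect of the missing gene cannot be told apart.

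Each hemoglobin molecule pairs alpha-like with beta-like chains around heme. In human development the embryonic chains, epsilon from *HBE1* and zeta from *HBZ*, come first in primitive red cells of the yolk sac. The fetal gamma chains from *HBG1* and *HBG2* follow, and the adult beta chain from *HBB* and the minor adult delta chain from *HBD* take over around birth, while *HBA1* and *HBA2* supply the alpha chain in fetal and adult life. *HBM* and *HBQ1* encode mu and theta globin, minor members of the alpha-like cluster. Red cell precursors derived from pluripotent stem cells are known for making mostly embryonic and fetal globins.

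On GRCh37, the build to which the reads were mapped, the beta-like genes lie on the minus strand of chromosome 11. *HBB* occupies chr11:5246694-5248301, *HBD* chr11:5254068-5255713, *HBG1* chr11:5269499-5271087, *HBG2* chr11:5274418-5276011 and *HBE1* chr11:5289575-5291175. The alpha-like genes lie on the plus strand of chromosome 16, with *HBZ* at chr16:202643-204502, *HBM* at chr16:215977-216763, *HBA2* at chr16:222875-223709, *HBA1* at chr16:226679-227521 and *HBQ1* at chr16:230458-231178. Each gene has 3 exons in its canonical transcript in the GENCODE annotation. All 10 gene identifiers in the tables matched that annotation.

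The 120 bases before the start of *HBE1*, *HBD* and *HBZ* are shown because these genes moved together between HEs and HPCs and differ in the motifs they hold. They are read 5′ to 3′ on the strand of the gene, and capitals mark matches to the motifs CCAAT or CACCC or AGATAA or TGATAA on either strand, and to AATAAA or CATAAA or TATAAA on the gene's strand in a window from 40 to 21 bases before the start.
HBE1, chr11:5291176-5291295, minus strand: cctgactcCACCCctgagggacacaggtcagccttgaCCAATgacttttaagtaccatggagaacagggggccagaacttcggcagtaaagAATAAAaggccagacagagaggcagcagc
HBD, chr11:5255714-5255833, minus strand: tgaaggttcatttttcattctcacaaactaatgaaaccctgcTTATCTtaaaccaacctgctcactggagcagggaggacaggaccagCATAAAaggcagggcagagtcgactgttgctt
HBZ, chr16:202523-202642, plus strand: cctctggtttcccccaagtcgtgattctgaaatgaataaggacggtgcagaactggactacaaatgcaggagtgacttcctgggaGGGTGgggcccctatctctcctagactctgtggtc

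Within 250 bases before the start, CCAAT was present in 8 of the 10 globin genes and in 34.2% of 19881 promoters of the annotation, and CACCC in 9 of the 10 and in 58.7% of promoters. AGATAA or TGATAA, forms of a core recognised by GATA factors, were found in that window in *HBE1* and *HBD* alone among the 10 genes and in 10.3% of promoters. Other forms of that core were not searched, so a gene without a match here may still hold one. A match to AATAAA or CATAAA or TATAAA at 40 to 21 bases before the start was found in 7 of the 10 genes and in 5.8% of promoters. The 3 without it were *HBZ*, *HBM* and *HBQ1*. These letters describe the windows and do not show that a factor was bound. *HBG1* and *HBG2* are alike at 231 of the 250 bases and *HBA1* and *HBA2* at 249, so each pair enters these counts as near copies.

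The pairs *HBG1* with *HBG2* and *HBA1* with *HBA2* are close copies, which bears on every value given for a single member. The coding sequences of *HBG1* and *HBG2* differ at 2 of 441 bases, C227T and C410G, where positions count from the first base of the start codon and the *HBG1* base stands first. The windows around both differences are shown with the differing base in capitals, because the 2 genes can be told apart in coding sequence at these positions alone.
HBG1, bases 213 to 242: cttgggagatgccaCaaagcacctggatga
HBG2, bases 213 to 242: cttgggagatgccaTaaagcacctggatga
HBG1, bases 396 to 425: gaagatggtgactgCagtggccagtgccct
HBG2, bases 396 to 425: gaagatggtgactgGagtggccagtgccct
The 426 coding bases of *HBA1* and *HBA2* are identical. The reads were 30 to 50 bases long. Of all 30-base words in the transcript, 77.4% in *HBG1*, 77.6% in *HBG2*, 82.3% in *HBA1* and 82.4% in *HBA2* also occur in another globin transcript, in each case in the close copy. The share was 19.8% in *HBD* and 19.2% in *HBB*, 3.9% in *HBE1*, 0.1% in *HBZ*, and none in *HBM* or *HBQ1*. The split of reads between the members of a pair is therefore uncertain, and sums over each pair are given beside the single values.

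The values were transcript abundances (TPM), corrected for length so that genes of a library can be compared. TPM keeps no read depth, and how many reads stood behind a value is unknown. The TPM of a library summed to between 998299 and 999106, and between 16004 and 17335 genes reached a TPM of 1. The labels give replicates by number only, and all p-values measure the spread between these samples, which may be technical. For *GATA2* itself the WT HEs had 107 and 78.0 TPM, the *GATA2*-/- HEs 111 and 94.1, the WT HPCs 290.1 and 204 and the *GATA2*-/- HPCs 112 and 83.8. A total over the gene does not resolve the disrupted exon, so it does not check the labels. The stage labels were met by their markers: *CDH5* (VE-cadherin) had a TPM of 514 to 614 in the 4 HE libraries against 53.9 to 137 in the 4 HPC libraries, and *POU5F1* 2855 and 3332 in hESCs against at most 3.02 elsewhere.

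The libraries numbered replicate 2 of the HEs and HPCs carry a tag in their file headers, whose meaning is not given, that the replicate 1 libraries lack. Replicate 2 of both HPC groups held more of most globin transcripts than replicate 1. This spread is described first because every HPC value below contains it. The ratio of replicate 2 to replicate 1 was 2.97 in WT HPCs and 2.81 in *GATA2*-/- HPCs for *HBE1*, 5.99 and 3.16 for *HBZ*, and 4.47 and 4.71 for *HBM*. It was 2.70 and 1.99 for *HBG2*, 3.29 and 2.01 for *HBA1*, 3.95 and 2.08 for *HBA2*, 3.73 and 1.95 for *HBG1*, and 2.02 and 2.11 for *HBQ1*. It was 1.67 and 1.42 for *HBD*, the lowest of the 10 in *GATA2*-/- HPCs, and 0.840 and 2.0 for *HBB*, the lowest in WT HPCs.

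Of the 8 globin genes that reached 10 TPM in all 4 HPC libraries, 5 were at least 2-fold higher in replicate 2 in both genotypes, against 0.144% of the 7631 genes with such levels (11 genes). At a ratio of 1.5 in both genotypes the counts were 7 of the 8 and 45 of 7631. The other 6 of the 11 genes were *ABCC3*, *AC119673.1*, *CRELD2*, *HERPUD1*, *MANF* and *THBS1*. The median ratio over the 7631 genes was 0.879 in WT HPCs and 0.929 in *GATA2*-/- HPCs. Of 7 erythroid markers at such levels, 0 reached a ratio of 2 and 1 a ratio of 1.5 in both genotypes. The 1 was *BLVRB*, a reductase of red cells, with 1.68 and 1.76. *ALAS2*, the first enzyme of red cell heme synthesis, had ratios of 1.28 and 0.888, and *KLF1*, an activator of erythroid genes, 1.07 and 1.10. These ratios are a description of 4 libraries, and whether the header tag has a part in them was not tested.

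**Figure D1:**
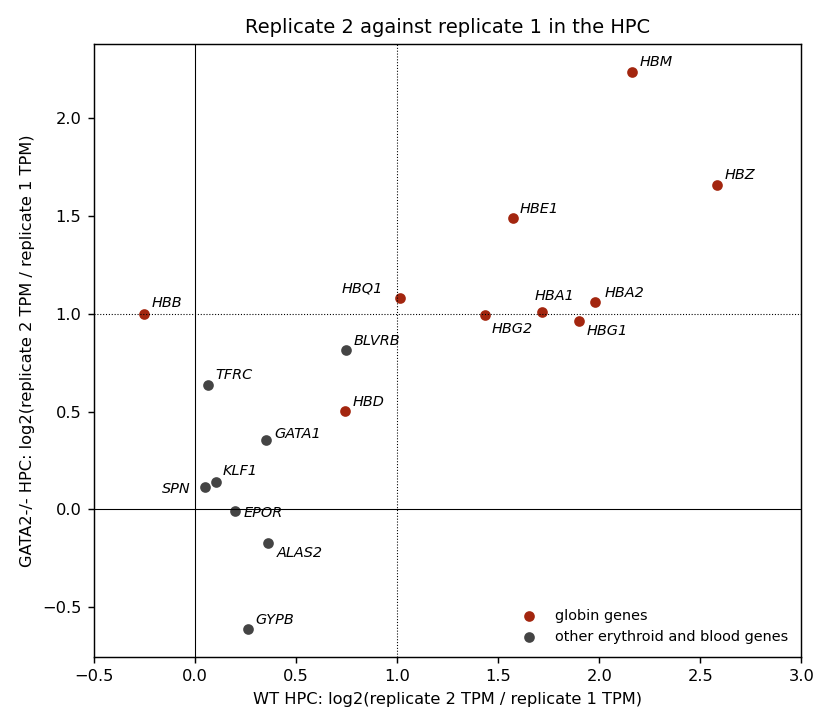
Log2 ratio of replicate 2 to replicate 1 TPM in WT HPCs (horizontal axis) and *GATA2*-/- HPCs (vertical axis) for the 10 globin genes and 8 other erythroid or blood genes, 1 point per gene. Dotted lines mark a 2-fold ratio. All globin genes but *HBB* lie above 0 on both axes, as do *BLVRB*, *GATA1*, *TFRC*, *KLF1* and *SPN*, with *KLF1* and *SPN* nearer to 0.

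The first question was how globin transcripts changed as HEs gave rise to HPCs. All 10 globin genes were higher in WT HPCs than in WT HEs and in *GATA2*-/- HPCs than in *GATA2*-/- HEs. The 10 genes together made up 0.00556% and 0.00478% of all TPM in WT HEs and 0.461% and 1.40% in WT HPCs. In *GATA2*-/- cells the share was 0.00200% and 0.00213% in HEs and 0.709% and 1.58% in HPCs. In hESCs it was at most 0.000571%. In bulk samples such as these, fewer cells of a type and less RNA per cell cannot be told apart.

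In limma on log2(TPM + 1), with an adjusted p (Benjamini-Hochberg over 21543 tested genes) under 0.05 as the threshold, the 10 members were called higher in WT HPCs than in WT HEs, where 3.32% of tested genes were called higher. The same 10 were called higher in *GATA2*-/- HPCs than in *GATA2*-/- HEs, where 5.5% were. The count itself is no support for a common rise, because *HBG1*, *HBD*, *HBB*, *HBZ* and *HBM* passed the filter on low values only through the HPC libraries, in which they are high. The other 5, *HBE1*, *HBG2*, *HBA1*, *HBA2* and *HBQ1*, passed it without the HPCs. The same filtered genes were kept when libraries were left out, so those counts carry the same limit for *HBG1*, *HBD*, *HBB*, *HBZ* and *HBM*. When each of the 10 libraries was left out in turn, 7 members stayed past the threshold every time in WT cells (all but *HBB*, *HBM* and *HBQ1*) and 8 in *GATA2*-/- cells (all but *HBB* and *HBM*). A fit on the 4 libraries of a comparison alone called no member and no other gene, with a lowest adjusted p among members of 0.0767 in WT cells and 0.0576 in *GATA2*-/- cells, while all 10 members had an unadjusted p under 0.05.

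**Figure D2:**
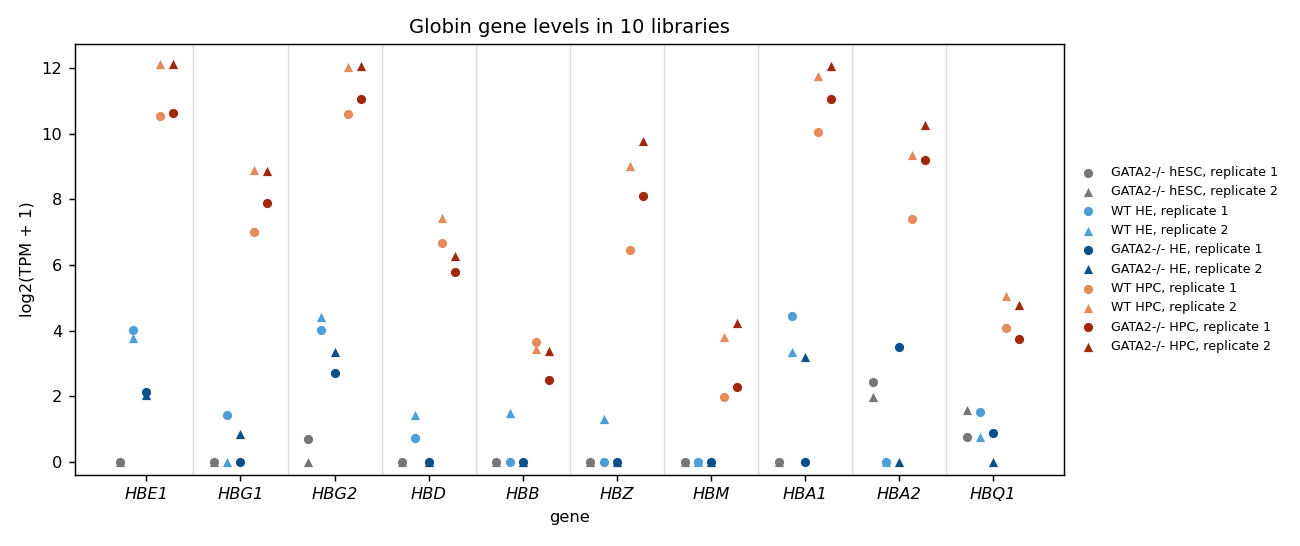
log2(TPM + 1) of the 10 globin genes in the 10 libraries, with 1 point per library, colours for the 5 groups and circles and triangles for replicates 1 and 2. The HPC points of each gene lie above its HE and hESC points, and *HBE1*, *HBG2* and *HBA1* reach the highest levels.

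*HBE1*, the embryonic epsilon gene, was listed at 0 in both hESC libraries. It was at 15.3 and 12.7 TPM in WT HEs and at 3.39 and 3.13 in *GATA2*-/- HEs, and it rose to 1496 and 4448 in WT HPCs and 1598 and 4487 in *GATA2*-/- HPCs. No HPC library overlapped any HE library. The difference between HPCs and HEs on the log2(TPM + 1) scale was 7.43 ± 0.54 (SE; adjusted p = 0.000294) in WT cells and 9.30 ± 0.54 (adjusted p = 0.000158) in *GATA2*-/- cells. Taken within replicate number, the HPC to HE ratio of TPM was 97.5 and 349 in WT cells and 472 and 1434 in *GATA2*-/- cells.

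The fetal gamma genes followed the same course. *HBG2* was at 15.2 and 20.3 TPM in WT HEs and 5.50 and 9.23 in *GATA2*-/- HEs, against 1546 and 4176 in WT HPCs and 2155 and 4284 in *GATA2*-/- HPCs. *HBG1*, its close copy, was at 1.66 and 0 in WT HEs, 0 and 0.780 in *GATA2*-/- HEs, 128 and 477 in WT HPCs and 238 and 465 in *GATA2*-/- HPCs. For both genes every HPC library lay above every HE library. The log2 difference between HPCs and HEs was 7.10 ± 0.50 in WT cells (adjusted p = 0.000268) and 8.54 ± 0.50 in *GATA2*-/- cells (adjusted p = 0.000158) for *HBG2*. For *HBG1* it was 7.25 ± 0.68 (adjusted p = 0.000583) and 7.97 ± 0.68 (adjusted p = 0.000331), sizes that rest on the 1 TPM added, since with 0.1 added they were 9.20 and 10.1. In the tables *HBG2* took 89.7% to 92.4% of the summed *HBG1* and *HBG2* TPM in the 4 HPC libraries, a split that rests on the few reads that tell the copies apart.

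The adult beta-like genes stayed below *HBE1* and both gamma genes in each HPC library. *HBD*, the delta gene, reached 101 and 170 TPM in WT HPCs and 54.4 and 77.0 in *GATA2*-/- HPCs, from 0.640 and 1.67 in WT HEs, and it was listed at 0 in both *GATA2*-/- HEs. *HBB*, the adult beta gene, reached 11.6 and 9.74 in WT HPCs and 4.65 and 9.29 in *GATA2*-/- HPCs, was at 0 and 1.77 in WT HEs and was listed at 0 in both *GATA2*-/- HEs. *HBE1* stood 129 to 483 times above *HBB* in the 4 HPC libraries. The log2 difference in WT cells was 5.98 ± 0.37 for *HBD* (adjusted p = 0.000149) and 2.81 ± 0.52 for *HBB* (adjusted p = 0.0106). With 0.1 added to the TPM in place of 1 it was 6.84 for *HBD* and 4.63 for *HBB*, and *HBB* no longer passed the threshold (adjusted p = 0.0614). In *GATA2*-/- cells no fold is given against a group listed at 0, and the adjusted p was 0.000158 for *HBD* and 0.00699 for *HBB*.

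Among the alpha-like genes, the embryonic zeta gene *HBZ* was listed at 0 in both hESC libraries, in 1 of the 2 WT HE libraries (the other had 1.48 TPM) and in both *GATA2*-/- HE libraries. It was at 86.8 and 520 TPM in WT HPCs and at 276 and 872 in *GATA2*-/- HPCs. The ranges of the genotypes overlapped in HPCs, while no HPC library overlapped an HE library. The log2 difference in WT cells was 7.08 ± 0.82 (adjusted p = 0.00116), or 9.06 with 0.1 added, and in *GATA2*-/- cells the adjusted p was 0.000429.

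The close copies *HBA1* and *HBA2*, which encode the same alpha chain, traded places in the tables. *HBA1* was at 20.9 and 9.06 TPM in WT HEs and 0 and 8.13 in *GATA2*-/- HEs, and at 1052 and 3460 in WT HPCs and 2154 and 4328 in *GATA2*-/- HPCs. *HBA2* was listed at 0 in both WT HEs, at 10.2 and 0 in *GATA2*-/- HEs, and at 166 and 657 in WT HPCs and 589 and 1227 in *GATA2*-/- HPCs. In each of the 4 HE libraries 1 of the 2 copies was listed at 0 and the other was not, and in both hESC libraries *HBA1* was listed at 0 and *HBA2* was at 4.41 and 2.90. Their sum reached 20.9 and 9.06 TPM in the WT HE libraries and 10.2 and 8.13 in *GATA2*-/- HEs, against 1218 and 4117 in WT HPCs and 2744 and 5555 in *GATA2*-/- HPCs. The sum did not separate the genotypes in HEs, unlike *HBA1* alone. The HPC to HE comparison was called for *HBA1* (adjusted p = 0.00242 in WT and 0.000461 in *GATA2*-/- cells) and *HBA2* (0.00139 and 0.00143), and it was also called for the sum.

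The minor genes of the alpha cluster were low throughout. *HBM* was listed at 0 in all hESC and HE libraries and was at 2.92 and 13.1 TPM in WT HPCs and 3.81 and 17.9 in *GATA2*-/- HPCs. *HBQ1* was at 1.87 and 0.700 in WT HEs, 0.830 and 0 in *GATA2*-/- HEs, 15.8 and 31.9 in WT HPCs and 12.5 and 26.4 in *GATA2*-/- HPCs. The HPC libraries of both genes lay above all others. The adjusted p in WT cells was 0.0378 for *HBM* and 0.00594 for *HBQ1*, and leaving out single libraries took *HBM* in both genotypes and *HBQ1* in WT cells over the threshold.

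The order of the levels was similar in the 4 HPC libraries. *HBE1*, *HBG2* and *HBA1* held the first 3 places in each, in an order that changed from library to library and was not tested. *HBA1* was the lowest of the 3 in both WT HPC libraries but in neither *GATA2*-/- HPC library. *HBA2* came next in each library. *HBG1*, *HBZ* and *HBD* filled the next 3 places. *HBD* lay below *HBG1* in each HPC library, and below *HBZ* in each but WT HPC replicate 1. *HBQ1*, *HBB* and *HBM* were the lowest.

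The stages were also compared with the stem cells from which they came, in *GATA2*-/- cells only. In *GATA2*-/- HPCs all 10 members were called higher than in *GATA2*-/- hESCs, where 14.2% of tested genes were called higher. Here too the count is no support for a common rise. *HBG1*, *HBD*, *HBB*, *HBZ* and *HBM* entered the test only through the HPC libraries, in which they are high. In *GATA2*-/- HEs 2 members were called higher than in hESCs, against 13.9% of tested genes. They were *HBG2*, which had 0.610 and 0 TPM in hESCs (log2 difference 2.68 ± 0.50, adjusted p = 0.00398, or 4.76 with 0.1 added), and *HBE1*, which was listed at 0 in hESCs (adjusted p = 0.0183). The call of *HBE1* was lost when any 1 of the 4 libraries of this comparison was left out (adjusted p of 0.0764 to 0.126), and that of *HBG2* without hESC replicate 2 (adjusted p = 0.0631). Without *GATA2*-/- HE replicate 1, the library in which it was listed at 0, *HBA1* was called beside *HBG2* (adjusted p = 0.0238). These comparisons share their hESC and *GATA2*-/- samples with each other and with those above.

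The composition of the beta-like transcripts, given here as shares of the summed beta-like TPM without a test, was divided almost evenly between *HBE1* and the gamma genes in HPCs. *HBE1* made up 45.6% and 47.9% in WT HPCs and 39.5% and 48.1% in *GATA2*-/- HPCs. *HBG1* and *HBG2* together made up 51.0% and 50.1% in WT HPCs and 59.1% and 50.9% in *GATA2*-/- HPCs. The difference between genotypes in HPCs was -2.95 percentage points for *HBE1* and 4.45 for the gamma genes (*GATA2*-/- minus WT), less than the larger SD between replicates of 6.13 and 5.76. *HBD* made up 3.09% and 1.83% in WT HPCs and 1.34% and 0.826% in *GATA2*-/- HPCs, and *HBB* at most 0.353%. The adult genes were the smallest part of the beta-like transcripts in all 4 HPC libraries.

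In HEs the shares rested on few TPM and spread widely. *HBE1* made up 46.7% and 34.9% of beta-like TPM in WT HEs and 38.1% and 23.8% in *GATA2*-/- HEs. The mean *HBE1* share was 5.92 points higher in WT HPCs than in WT HEs, within the replicate SD of 8.36, and 12.8 points higher in *GATA2*-/- HPCs than in *GATA2*-/- HEs, with a replicate SD of 10.1. The gamma share was 15.5 points higher in *GATA2*-/- HEs than in WT HEs, with a replicate SD of 10.1. The gamma share was 61.9% and 76.2% in *GATA2*-/- HEs and 51.3% and 55.7% in WT HEs, so the 2 genotypes did not overlap there.

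**Figure D3:**
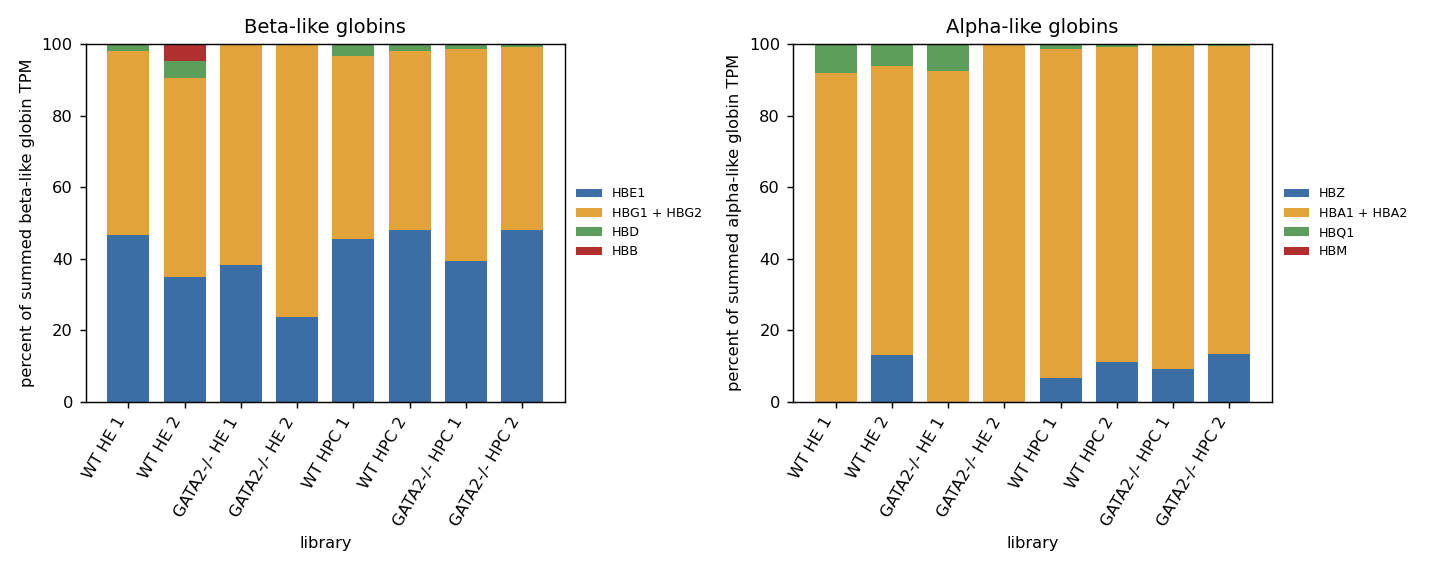
Stacked bars of the percent of summed beta-like TPM (left) and alpha-like TPM (right) held by each gene or gene pair in the 8 HE and HPC libraries. *HBE1* and the gamma genes fill nearly all of each HPC bar on the left, and *HBA1* with *HBA2* 85.8% to 92.0% of each HPC bar on the right.

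Of the alpha-like transcripts, *HBZ* made up 6.55% and 11.1% in WT HPCs and 9.09% and 13.5% in *GATA2*-/- HPCs, a mean difference of 2.45 points within the replicate SD of 3.22. *HBA1* and *HBA2* together made up 92.0% and 87.9% in WT HPCs and 90.4% and 85.8% in *GATA2*-/- HPCs. Embryonic transcripts were thus a minor part on the alpha side, with *HBZ* at most 13.5%, and close to an even part on the beta side. In each HPC library *HBE1* stood above *HBZ*, by 17.2 and 8.56 times in WT HPCs and 5.79 and 5.15 times in *GATA2*-/- HPCs. The ratio of summed alpha-like to summed beta-like TPM was 0.403 and 0.504 in WT HPCs and 0.749 and 0.694 in *GATA2*-/- HPCs. The genotypes did not overlap in that ratio in HPCs, but in HEs, where it was 0.693 and 0.308 in WT and 1.24 and 0.619 in *GATA2*-/- libraries, they did. These ratios were looked at after the levels were known and have no test.

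The next question was whether globin transcripts differed between genotypes. No member was called in *GATA2*-/- HEs against WT HEs, where 0.0186% of tested genes (4) were called in either direction, and none in *GATA2*-/- HPCs against WT HPCs, where 0.0603% (13) were. At an unadjusted p under 0.05 there were 4 members and 1045 genes in HEs, and 1 member and 1925 genes in HPCs. No gene was called for a difference of the genotype effect between HPCs and HEs (0.0% of tested genes), and 1 member and 1281 genes had an unadjusted p under 0.05. A p that misses the threshold at 2 libraries a group does not show that the levels were alike, and the standard errors give the size of what could be missed.

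In HEs both *GATA2*-/- libraries were below both WT libraries for 4 members, *HBE1*, *HBG2*, *HBD* and *HBA1*, as were 16.5% of tested genes, and above them for no member, as were 13.8%. The log2 difference was -1.81 ± 0.54 for *HBE1* (adjusted p = 0.786) and -1.19 ± 0.50 for *HBG2* (adjusted p = 0.99). For *HBA1* it was -2.29 ± 0.95 (adjusted p = 0.968), or -3.93 with 0.1 added, and for *HBD*, listed at 0 in *GATA2*-/- HEs, the adjusted p was 0.918. The pair *HBA1* and *HBA2* is set apart, since *HBA2* had 10.2 TPM in 1 *GATA2*-/- HE library and 0 in WT HEs. The 10 genes summed to 55.5 and 47.7 TPM in the WT HE libraries and to 20.0 and 21.3 in the *GATA2*-/- HE libraries.

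Among 15 tested erythroid markers, both *GATA2*-/- HE libraries lay below both WT HE libraries for 8, against 16.5% of all tested genes, and above them for 1, against 13.8%, while 6 overlapped or tied. The 1 above was *CA2*, a carbonic anhydrase, at 91.3 and 77.3 TPM in WT and 153 and 101 in *GATA2*-/- HEs. *EPOR*, the erythropoietin receptor, overlapped, at 15.9 and 14.4 in WT and 22.6 and 13.0 in *GATA2*-/- HEs. *GATA1*, the erythroid GATA factor, was at 18.4 and 12.1 TPM in WT and 2.78 and 1.37 in *GATA2*-/- HEs (log2 difference -2.41 ± 0.31, adjusted p = 0.0814). *ALAS2* was at 22.4 and 13.5 in WT and 6.47 and 1.93 in *GATA2*-/- HEs, and *KLF1* at 19.6 and 6.73 in WT and 4.68 and 0.980 in *GATA2*-/- HEs. The WT libraries were the higher for all 3 of these genes. These 3 are examples from the lists of globin regulators and heme genes described below, not from the 15 markers. Some other members of those lists did not share this order. *TFRC*, the transferrin receptor, overlapped, at 33.6 and 28.9 in WT and 41.6 and 30.7 in *GATA2*-/- HEs. *LMO2*, a regulator, was higher in both *GATA2*-/- HE libraries (275 and 238) than in WT HEs (198 and 188). Of the 15 erythroid markers, 0 were called in either direction, and the summed TPM ranged from 254 to 361 in WT HEs and from 152 to 257 in *GATA2*-/- HEs. *SPN* (CD43), which was used to sort CD43- cells as HEs, was at 8.81 and 4.86 in WT and 7.48 and 1.76 in *GATA2*-/- HEs. Whether CD43+ or erythroid cells within the HE samples had a part in the globin levels there was not tested.

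Megakaryocyte markers, which belong to a sister lineage of red cells, were summed at 116 to 135 TPM in WT HEs and 46.8 to 75.8 in *GATA2*-/- HEs. One of the 8 tested, *PF4* (platelet factor 4), was lower in *GATA2*-/- HEs (log2 difference -2.79 ± 0.27, adjusted p = 0.0249). Of the 9 endothelial markers tested none was called in HEs, and their sum was 2825 to 2907 in WT and 3074 to 3371 in *GATA2*-/- HEs.

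**Figure D4:**
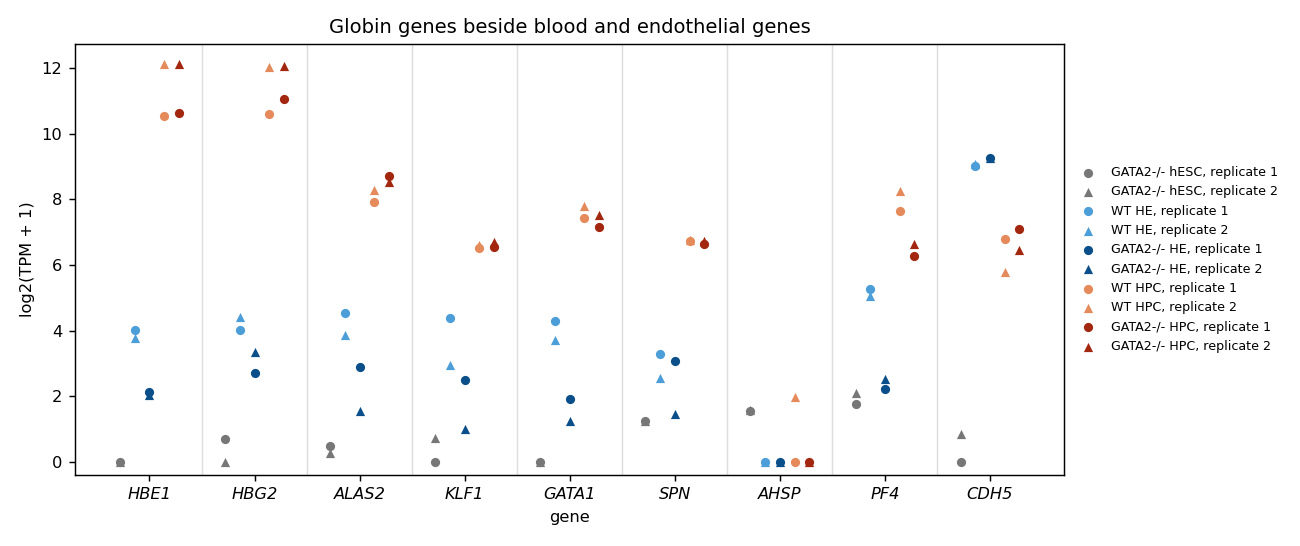
log2(TPM + 1) of *HBE1* and *HBG2* beside erythroid (*ALAS2*, *KLF1*, *GATA1*, *AHSP*), CD43 (*SPN*), megakaryocyte (*PF4*) and endothelial (*CDH5*) genes, 1 point per library. In HEs the *GATA2*-/- points of *HBE1*, *HBG2*, *ALAS2*, *KLF1*, *GATA1* and *PF4* lie below the WT points. *AHSP* is the lowest of these genes in each HPC library.

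In HPCs the globin levels of the 2 genotypes overlapped for 8 of the 10 genes. Both *GATA2*-/- libraries were below both WT libraries for *HBD* and *HBB*, as were 13.0% of tested genes, and above them for no member, as were 19.7%. *HBD* had a log2 difference of -1.01 ± 0.37 (adjusted p = 0.465), and the *GATA2*-/- to WT ratio of its TPM was 0.536 between the replicate 1 libraries and 0.453 between the replicate 2 libraries. For *HBB* the ratios were 0.401 and 0.954 (log2 difference -0.61 ± 0.52, adjusted p = 0.751). *HBD* was the only member with an unadjusted p under 0.05, and both of its *GATA2*-/- libraries lay below WT in each stage.

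The other 8 genes overlapped between genotypes in HPCs. For *HBE1* the *GATA2*-/- to WT ratio was 1.07 between replicate 1 libraries and 1.01 between replicate 2 libraries (log2 difference 0.05 ± 0.54, adjusted p = 1.0). For *HBG2* it was 1.39 and 1.03 (0.26 ± 0.50, adjusted p = 0.931), and for *HBG1* 1.87 and 0.974 (0.43 ± 0.68, adjusted p = 0.896). Of the alpha-like genes, 4 had ratios above 1 and *HBQ1* had ratios below 1 in both pairs. The ratio was 3.18 and 1.68 for *HBZ* (1.20 ± 0.82, adjusted p = 0.699), 2.05 and 1.25 for *HBA1* (0.68 ± 0.95, adjusted p = 0.873) and 3.54 and 1.87 for *HBA2* (1.36 ± 1.01, adjusted p = 0.718). It was 1.30 and 1.37 for *HBM* and 0.792 and 0.830 for *HBQ1*, with adjusted p of 0.933 and 0.93. None of these differences was larger than the spread between replicates by the test. The sign of the fitted difference turned for *HBE1*, *HBG1*, *HBG2*, *HBZ*, *HBM*, *HBA1* and *HBQ1* when a single HPC library was left out.

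Hemoglobin also needs heme, iron and a chaperone for alpha chains. Of 18 genes for hemoglobin assembly and heme synthesis, 10 were called higher in HPCs than in HEs in WT and 11 in *GATA2*-/- cells. The share called higher over all tested genes was 3.32% and 5.5%. None of the 18 was called lower. Their median log2 difference was 0.87 and 0.92 against -0.01 and 0.03 over all tested genes. *ALAS2* rose from 22.4 and 13.5 TPM in WT HEs to 241 and 310 in WT HPCs (log2 difference 3.90 ± 0.41, adjusted p = 0.000821) and to 419 and 372 in *GATA2*-/- HPCs. *TFRC*, the transferrin receptor, rose by 1.73 ± 0.24 in WT (adjusted p = 0.00247) and *SLC25A37*, a mitochondrial iron importer, by 1.62 ± 0.32 (adjusted p = 0.0137). *AHSP*, the chaperone that binds free alpha chains, was listed at 0 in 3 of the 4 HPC libraries, at 2.96 in WT HPC replicate 2, at 0 in all HEs, and at 1.90 and 2.01 in hESCs. *AHSP* thus stayed at or near 0 in the HPC libraries in which the alpha genes were high.

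The levels of *HBE1* and *ALAS2* did not keep 1 ratio. The ratio of *HBE1* to *ALAS2* TPM took values of 0.685 and 0.942 for WT HEs and 0.524 and 1.62 for *GATA2*-/- HEs, against 6.20 and 14.4 for WT HPCs and 3.82 and 12.1 for *GATA2*-/- HPCs. The HPC ratios lay above all HE ratios, and within the HPCs the replicate 2 libraries were the higher.

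Among 21 regulators of globin genes, 8 were called higher in HPCs than in HEs in WT and 9 in *GATA2*-/- cells (medians 0.24 and 0.74). The share called higher over all tested genes was 3.32% and 5.5%. None of the 21 was called lower, and the others were not called. *GATA1* rose to 172 and 220 TPM in WT HPCs and 143 and 182 in *GATA2*-/- HPCs (3.62 ± 0.31 in WT, adjusted p = 0.000434). *KLF1* rose to 89.6 and 96.1 in WT and 92.9 and 102 in *GATA2*-/- HPCs (2.89 ± 0.57, adjusted p = 0.0137), and *NFE2*, a factor that binds the globin locus control regions, to 209 and 206 and to 235 and 222 (3.01 ± 0.47, adjusted p = 0.00475). *BCL11A*, a repressor of the gamma genes, was at 9.38 and 4.03 in WT HPCs, 6.25 and 7.50 in *GATA2*-/- HPCs, at most 1.32 in HEs and 15.9 and 8.49 in hESCs (2.25 ± 0.56 in WT, adjusted p = 0.0388). *MYB*, a factor of immature progenitors, rose to 103 and 80.4 in WT and 97.7 and 101 in *GATA2*-/- HPCs (2.15 ± 0.34, adjusted p = 0.00495). No regulator was called between genotypes in either stage.

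Of 15 tested erythroid markers, 8 were called higher in HPCs than in HEs in WT and 10 in *GATA2*-/- cells. The share called higher over all tested genes was 3.32% and 5.5%, and no marker was called lower. *BLVRB* rose to 155 and 261 TPM in WT HPCs (log2 difference 3.58 ± 0.32, adjusted p = 0.000535), and *GYPB*, a red cell surface protein, to 576 and 691 (3.42 ± 0.71, adjusted p = 0.0174). Levels varied widely among the erythroid markers. *SLC4A1*, which encodes the anion exchanger band 3, had at most 2.76 TPM and *CA1*, a carbonic anhydrase, at most 2.03 in any library. *RHAG* and *GYPE*, genes of red cell membrane proteins, had 197 to 247 and 252 to 266 TPM in HPCs. *CA2* went the other way in *GATA2*-/- cells, from 153 and 101 TPM in HEs to 78.9 and 54.4 in HPCs (log2 difference -0.92 ± 0.39, adjusted p = 0.17). In WT cells *CA2* was at 91.3 and 77.3 in HEs and at 102 and 96.4 in HPCs. Markers of other blood lineages were also called higher in HPCs. They were 7 of 8 megakaryocyte markers in WT and 5 of 8 in *GATA2*-/- cells, and 3 and 4 of 5 myeloid markers. All 9 endothelial markers were called lower in both. Over the 21543 tested genes, 715 were called higher in WT cells and 2134 in either direction. In *GATA2*-/- cells the numbers were 1185 and 2745. Markers of several blood lineages were thus present in the HPC samples, and the part of each cell type in the globin levels was not tested.

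The neighbours of the clusters did not follow the globins. Of 9 tested genes beside the alpha cluster, 1 was called higher and 1 lower in HPCs than in HEs in each genotype. *RHBDF1* fell in both (-1.24 ± 0.29 in WT, adjusted p = 0.0303), *SNRNP25* rose in WT and *POLR3K* in *GATA2*-/- cells, and *NPRL3*, whose introns hold the alpha-globin enhancers, had a difference of 0.55 ± 0.32 in WT (adjusted p = 0.382). Of 5 tested genes beside the beta cluster, *TRIM6* alone was called in WT (1.33 ± 0.36, adjusted p = 0.0489) and none in *GATA2*-/- cells. Within the beta cluster the pseudogene *HBBP1* was at 61.5 and 129 TPM in WT HPCs and 67.9 and 110 in *GATA2*-/- HPCs, from 1.15 and 1.72 in WT HEs (5.22 ± 0.40, adjusted p = 0.000331) and 0 in *GATA2*-/- HEs. Its level lay above that of *HBB* in all 4 HPC libraries. Cytoglobin (*CYGB*), a globin family gene outside the clusters that is expressed in many tissues, fell from HEs to HPCs in WT cells (-1.59 ± 0.39, adjusted p = 0.0356) and had a difference of -1.26 ± 0.39 in *GATA2*-/- cells (adjusted p = 0.0699).

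The genes whose pattern was most like that of the embryonic globins were named by the Pearson correlation of log2(TPM + 1) with the mean of *HBE1* and *HBZ* over the 10 libraries. The highest outside the members were *HBBP1* (r = 0.995), *GCSAML* (0.992), the heme enzyme gene *UROS* (0.991), *EGR4* (0.990) and *EIF4A2* (0.989), followed by *CXCL2*, *COL24A1*, *EGR2*, *CD55* and *MEGT1*. *COL24A1*, a collagen gene, was at 50.6 and 70.6 TPM in WT HPCs, 50.6 and 95.8 in *GATA2*-/- HPCs and at most 0.800 elsewhere. *UROS* moved over a far smaller range, from 40.8 to 59.6 outside HPCs and 105 to 129 in HPCs. These correlations mostly restate the split between HPCs and the other libraries, which all such genes share, and they have no p.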

How the data were processed

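RNA of sorted cells or hESCs was made into TruSeq libraries and sequenced on a MiSeq system as single-end reads of 30 to 50 bases. The authors trimmed adapters with Trimmomatic and mapped reads to hg19 with Bowtie, and the submitters' processing notes also list RSEM and mm10 without a role. The deposited values are TPM per gene. The Cuffdiff test of the study needs alignments and was not repeated. Here the test was limma 3.58.1 (R 4.3.3; linear model, then eBayes with trend) on the log2 of TPM with 1 added, with 1 variance estimate over the 5 groups. A gene entered if 2 or more libraries reached 1 TPM, which left 21543 genes. The threshold was an adjusted p (Benjamini-Hochberg) under 0.05. On simulated data for *GATA2*-/- against WT HPCs over 21543 genes, the procedure called 81 of 100 genes changed by 2 on the log2 scale and 100 of 100 changed by 4. It also called 18 unchanged genes, which are false calls. The changed genes had a mean log2(TPM + 1) above 2, and the noise was independent between genes. The rates therefore do not give the power for globins near 0 or with a shared replicate shift. Shares and ratios were computed from TPM in Python 3.11.15. Depth is unknown, so no counting intervals are given. Exons, starts and sequences come from GRCh37 with GENCODE v44 annotation lifted to that build. Named genes were the 10 members, fixed examples in each list with up to 3 more by the largest WT HPC to HE difference, *GATA2*, and the 10 genes most correlated with *HBE1* and *HBZ*. One example of the lists and the upstream sequence of some members are not reported here. Markers named for the groups, *LMO2* and the 11 genes with a 2-fold replicate ratio were chosen after their values were seen. The members and lists were chosen with earlier results of these data known. Alternatives were a replicate block, another pseudocount, no filter, fewer libraries, other scalings, summed copies, and each library left out.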

Additional observations from a re-analysis of the deposited data

How the results depend on the processing

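With 2 libraries a group and 5 residual degrees of freedom, the calls between HPCs and HEs rest on a variance shared over all 5 groups. Fitted on the 4 libraries of a comparison alone, the number of globin genes called fell from 10 to 0 in WT and from 10 to 0 in *GATA2*-/- cells, as no gene of the 21543 was called there. Under the other settings that kept all libraries the counts stayed within 1.5 times the main one, and no alternative called a member between genotypes. The fits with single libraries left out kept the genes filtered on all 10 libraries. Their counts are therefore no support for members that entered only through the HPCs. Leaving out each library in turn gave 7 to 10 members called in WT HPCs against HEs (7 to 9 over the 4 libraries compared), 8 to 10 in *GATA2*-/- HPCs against HEs, 9 to 10 in *GATA2*-/- HPCs against hESCs, and 0 to 2 in *GATA2*-/- HEs against hESCs. A pseudocount of 0.1 gave 8 in WT cells (without *HBB* and *HBQ1*) and enlarged the differences of genes near 0 in HEs, from 7.08 to 9.06 for *HBZ*, 7.25 to 9.20 for *HBG1* and 2.81 to 4.63 for *HBB* in WT cells. With 1 library left out these ran from 5.80 to 8.37, 6.30 to 8.20 and 2.07 to 3.54. With the replicate block the counts were 10, 10, 10 and 2 in these comparisons and 0 between genotypes, and it changed no call of a member, while the count over all genes moved from 4 to 2 between genotypes in HEs and from 13 to 3 in HPCs. Over the 21543 tested genes the deviations of same-numbered libraries were little correlated. The r was 0.12 between WT and *GATA2*-/- HEs, 0.06 between the HPC groups and at most 0.03 elsewhere. Being taken over all genes, it does not bear on the higher level of most globins in replicate 2 of both HPC groups. A replicate block within each stage, added after seeing the data, gave 8 and 9 members called between HPCs and HEs. Over single libraries left out, the log2 difference between *GATA2*-/- and WT HPCs ran from -0.73 to 0.84 for *HBE1*, -0.52 to 1.38 for *HBG1*, -0.46 to 0.97 for *HBG2*, -0.083 to 2.49 for *HBZ*, -0.63 to 1.35 for *HBM*, -0.18 to 1.54 for *HBA1* and -0.80 to 0.22 for *HBQ1*. In HEs it ran from -1.0 to 0.42 for *HBG1*, and *HBA2* in *GATA2*-/- HEs against hESCs ran from -2.20 to 1.29. None of these values passed the threshold, and the cause of the turns was not tested. The 12 differences in shares moved by less than the SD between replicates under a denominator without the minor genes. Leaving out 1 of the 2 libraries of a group always moves its mean by less than their SD. It is therefore no check of the shares. Copies with shared reads and unknown depth limit what single values of *HBG1*, *HBG2*, *HBA1* and *HBA2* show.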
